A study of Mus musculus with 4 samples.

Results

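The genes described here are the chemokines and chemokine receptors, picked by symbol from the deposited tables: 63 of 55401 gene models, of which 40 encode ligands and 23 encode receptors, including the atypical receptor genes Ackr1 to Ackr4 and Ccrl2. They were measured by RNA-seq in group 2 innate lymphoid cells (ILC2s), tissue-resident lymphocytes that lack antigen receptors, purified from lung tissue of mice of the C57BL/6 strain. A sample held 500 cells. In 2 libraries the cells had received IL-33, the epithelial alarm cytokine that drives ILC2s, and in the other 2 IL-33 plus Ang II (angiotensin II, a peptide hormone that raises blood pressure), each during 6 h, so that every library had received IL-33 and none was unstimulated. The labels name no dose, and nothing in them ties a sample to its own animal or culture. The p-values therefore measure only how far these libraries scatter, which may be technical.

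Chemokines are small secreted proteins that guide leukocytes along concentration gradients, and their receptors are seven-transmembrane proteins that signal mainly through Gi proteins. A few pairs are private, such as Cxcl16 with Cxcr6, while many inflammatory ligands share several receptors. Atypical receptors bind chemokines without the usual G protein signal and act as scavengers or presenters. In the lung, ILC2s are known both to home through chemokine receptors, Ccr8 and Cxcr6 among them, and to release chemokines that draw in other leukocytes.

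Levels are given in FPKM (sequenced fragments corrected for the length of the transcript and the size of the library), which lets levels be compared per length between genes. The library sums of FPKM lay between 394808 and 431014. The IL-33 libraries were nearly copies of each other. Over the 9215 genes tested (those averaging 1 FPKM or more) log2(FPKM + 1) correlated at r = 0.994, and the spread of this pair was 0.775 times the counting noise at the depth that detection of low genes implies. For the Ang II pair r was 0.568, with a spread of 11.7 times that noise. The difference within the IL-33 pair was below sampling noise, and the pair was counted as 1 sample, its mean, so tests set n = 1 against n = 2. Both IL-33 values are printed below, but their agreement says nothing about the spread between separate IL-33 samples. Of 11 ILC2 marker genes, 10 were at 1 FPKM or more in at least 1 library, Thy1 being the exception. By the mean over the IL-33 mean and both Ang II libraries, the most abundant were Id2 (741 and 746 FPKM against 760 and 489 FPKM with Ang II) and Klrg1 (291 and 296 FPKM against 283 and 449 FPKM), closely followed by Icos (357 and 348 FPKM against 264 and 383 FPKM). Gata3, the lineage transcription factor, measured 104 and 108 FPKM under IL-33 alone, and 185 and 130 FPKM once Ang II was added.

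Of the 63 genes, 23 were listed at 0 in all 4 libraries, 17 had some value but a mean under 1 FPKM over the 3 columns tested, and 23 were tested. The genes at 0 throughout included Ccl17 and Ccl22, the ligands of Ccr4, the eosinophil attractants Ccl11 and Ccl24, the Ccr7 ligands Ccl19 and Ccl21a, and the eotaxin receptor gene Ccr3. Of the 17 genes not tested, 15 stayed under 1 FPKM in every library. The exceptions were Ccl27a, at 2.93 FPKM in Ang II replicate 1 and listed at 0 in the other libraries, and Cxcl13, which encodes a chemokine that draws B cells, with 1.94 FPKM in Ang II replicate 2 alone. Ccl27a and Ccl27b, and the Ccl21 genes, are near-identical copies among which reads can be split. The 63 genes together took 0.953% and 0.963% of the FPKM sum with IL-33, and 0.622% and 1.16% with Ang II.

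No chemokine or receptor gene passed an adjusted p of 0.05 (limma over all 9215 genes, Benjamini-Hochberg, two-sided), as 0% of all genes did, and the smallest adjusted p of a family member was 0.174. At an unadjusted p under 0.05, 1 family member was higher with Ang II (Ccl1) and 2 were lower (Ccr7 and Cxcl1), where the shares among all tested genes were 2.79% (higher) and 10.8% (lower). Of the 23 tested genes, 6 had both Ang II values above both IL-33 values and 8 had both below, against 24.4% and 33.5% of all tested genes. The shares of the family are close to those of all genes. The median log2 fold change, on the log2(FPKM + 1) scale, was -0.31 for the family and 0.00 for all tested genes. It was -0.48 in Ang II replicate 1 and 0.16 in replicate 2.

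Members of the ligand family are classed by the spacing of their first cysteines, adjacent in CC chemokines and separated by a single residue in CXC chemokines. The 23 CC ligand genes read (Ccl21d was not matched) and 13 of 14 CXC ligand genes showed the spacing in codons. In the longest annotated coding sequence of Cxcl11 it was not found. The 5 coding stretches below, from GENCODE M21 transcripts, are those of ligands the results turn on, with the cysteine codons in capitals.
Ccl1: gtctccaatagcTGCTGCttgaacaccttg
Ccl9: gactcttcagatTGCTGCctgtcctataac
Cxcl2: agtgaactgcgcTGTcaaTGCctgaagacc
Cxcl3: agtgagctgcgcTGTcagTGCctgaacacc
Cxcl10: aggacggtccgcTGCaacTGCatccatatc
In Cxcl2 and Cxcl3 the codons of the Glu-Leu-Arg (ELR) motif, which marks the neutrophil-attracting CXC chemokines, stand directly before the first cysteine codon. Of the 13 CXC genes, 5 carried it (Cxcl1, Cxcl2, Cxcl3, Cxcl5 and Cxcl15), and Cxcl10 did not.

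Among CC ligands, Ccl1 (chromosome 11, 82176657 to 82305690, minus strand), which encodes the ligand of Ccr8, stood at 0.11 FPKM in both IL-33 libraries and at 87.0 and 58.3 FPKM with Ang II. The groups did not overlap, and IL-33 values were near 0. The log2 fold change was 6.02 (SE 0.56; by limma, adjusted p = 0.174), and 8.41 with a pseudocount of 0.1 FPKM. Among 48023 gene models under 1 FPKM in both IL-33 libraries, 0.366% reached 10 FPKM in both Ang II libraries, and Ccl1 was the only one of 43 family members to do so. In Ang II replicate 1 alone 0 members did, against 0.904% of these models, and in replicate 2 alone 1 member did (Cxcr1), against 1.08%. The level of Ccl1 ranked 8951 and 8988 among all genes with IL-33, and 861 and 1160 with Ang II.

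Ccl9 (chromosome 11, 83572919 to 83578636, minus strand), which encodes a myeloid attractant that acts on Ccr1, measured 9.90 and 8.99 FPKM under IL-33 alone, and 50.1 and 103 FPKM once Ang II was added. Both Ang II values lay above both IL-33 values, at 5.30 and 10.95 times the IL-33 mean. The log2 fold change was 2.81 (SE 0.73; by limma, adjusted p = 0.443). Its neighbour Ccl6, which encodes a related myeloid attractant, showed another pattern. Ccl6 stood at 39.6 and 40.3 FPKM with IL-33, at 0.37 FPKM in Ang II replicate 1 and at 223 FPKM in replicate 2. The IL-33 values lay between those of the Ang II libraries, which were 7.35 apart on the log2 scale, the widest gap of the 23 tested genes.

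Ccl3 and Ccl4 encode macrophage inflammatory proteins, which attract leukocytes. Ccl3 was the most abundant ligand with IL-33, at 623 and 613 FPKM. With Ang II it stood at 41.9 FPKM in replicate 1 and at 653 FPKM in replicate 2, so 1 library was far below the IL-33 level and the other near it. Ccl4 showed the same split, measuring 127 and 130 FPKM under IL-33 alone, and 1.09 and 137 FPKM once Ang II was added. In replicate 2 the ratio of Ccl3 to Ccl4 was 4.76, beside 4.89 and 4.73 with IL-33, and in replicate 1 it was 38.5. Without Ang II replicate 1 the log2 differences were 0.08 for Ccl3 and 0.09 for Ccl4. Ccl5, which encodes the T cell and eosinophil attractant RANTES, measured 24.9 and 28.8 FPKM under IL-33 alone, and 23.9 and 12.8 FPKM once Ang II was added. Its groups did not overlap, but the Ang II libraries differed by more (0.85 on the log2 scale) than the groups did (log2 fold change -0.59, SE 0.67).

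**Figure D1:**
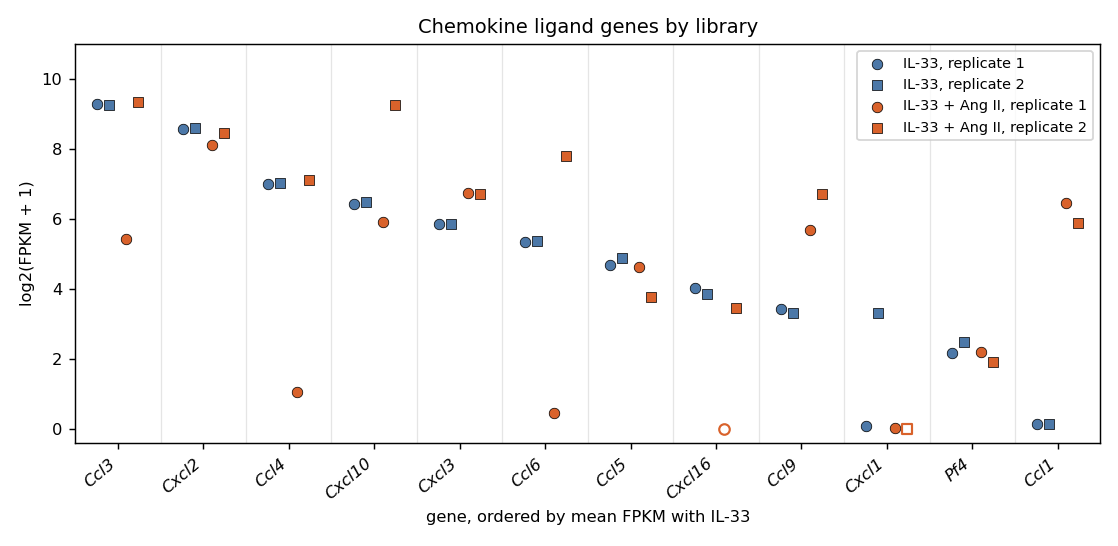
Level of the 12 tested ligand genes as log2(FPKM + 1), with blue for IL-33 and orange for IL-33 plus Ang II, circles for replicate 1 and squares for replicate 2, and open symbols for a listed 0. Ccl1, Ccl9 and Cxcl3 have both orange points above both blue points, while the orange points of Ccl3, Ccl4, Ccl6, Cxcl10 and Cxcl16 are far apart.

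Among CXC ligands, Cxcl2 and Cxcl3 encode neutrophil attractants that act on Cxcr2. Cxcl2 (chromosome 5, 90903871 to 90905938, plus strand) measured 382 and 385 FPKM under IL-33 alone, and 274 and 350 FPKM once Ang II was added (log2 fold change -0.31, SE 0.28). Cxcl3 (chromosome 5, 90786103 to 90789600, plus strand) measured 56.9 and 57.4 FPKM under IL-33 alone, and 106 and 103 FPKM once Ang II was added (log2 fold change 0.86, SE 0.24; in limma the adjusted p = 0.462). Cxcl3 was thus higher in both Ang II libraries, by 1.85 and 1.81 times, where Cxcl2 was lower in both. The ratio of Cxcl2 to Cxcl3 was 6.71 in both IL-33 libraries and 2.58 and 3.38 with Ang II. Their coding sequences, 300 bases each, are 89.7% identical and share an unbroken identical run of 98 bases, so reads may have been divided between the pair when they were assigned, and both levels are uncertain. The part of such sharing in the ratio was not tested. Cxcl1, the third of these ELR genes, measured 0.06 and 8.99 FPKM under IL-33 alone, and 0.03 and 0 FPKM once Ang II was added. It was 1 of 14 genes at 5 FPKM or more in 1 IL-33 library and under 0.5 FPKM in the other, of 5448 genes that reached 5 FPKM in either. Its low unadjusted p (0.0101 by limma, adjusted p = 0.174) therefore rests on IL-33 replicate 2, and without that library it fell under the minimum for a test. Whether reads were also divided between Cxcl1 and its ELR relatives was not tested.

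Cxcl10, an interferon-inducible attractant of Cxcr3-bearing lymphocytes, stood at 84.5 and 89.1 FPKM with IL-33, at 59.1 FPKM in Ang II replicate 1 and at 609 FPKM in replicate 2. The Ang II values lay on either side of the IL-33 values (log2 fold change 1.12, SE 2.16), and without replicate 2 the difference was -0.55. Cxcl9 was listed at 0 in every library, and Cxcl11 did not exceed 0.02 FPKM. Cxcl16, which encodes the membrane-bound ligand of Cxcr6, stood at 15.4 and 13.4 FPKM with IL-33, was listed at 0 in Ang II replicate 1 and stood at 10.1 FPKM in replicate 2. Pf4, the platelet factor 4 gene, stayed between 2.82 and 4.64 FPKM in the 4 libraries, and its groups overlapped. Xcl1, the C chemokine of NK and T cells, was at 0.13 FPKM in Ang II replicate 1 and at 0 elsewhere.

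The leading ligand differed between the Ang II libraries. With IL-33, Ccl3 made up 45.6% and 44.5% of the ligand FPKM and Cxcl2 28.0% and 27.9%. In Ang II replicate 1 Cxcl2 led with 42.1% and Ccl3 held 6.45%. In replicate 2 Ccl3 held 28.8%, Cxcl10 26.9% and Cxcl2 15.4%. The summed ligand level was 1367 and 1379 FPKM with IL-33 and 650 and 2265 FPKM with Ang II, so the Ang II values enclosed the IL-33 values.

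RefSeq's promoter table (GRCm38.p6, the same assembly as mm10) held 48 of the 63 genes and 19 of the 23 tested. The 250 bases before the start are shown for 4 ligands, Ccl1, Ccl9 and Cxcl3 because both Ang II values were above both IL-33 values and Cxcl2 as the near copy that was not. Capitals mark matches on either strand to the NF-kB consensus in its form with A or T at position 6, which is bound by a transcription factor that IL-33 signalling activates.
Ccl1, chr11:82179813-82180062, minus strand: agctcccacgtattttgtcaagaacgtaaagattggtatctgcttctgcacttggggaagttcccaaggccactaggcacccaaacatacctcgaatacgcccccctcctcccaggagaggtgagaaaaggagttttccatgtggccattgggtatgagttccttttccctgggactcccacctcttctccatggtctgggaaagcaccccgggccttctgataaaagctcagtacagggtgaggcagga
Ccl9, chr11:83578637-83578886, minus strand: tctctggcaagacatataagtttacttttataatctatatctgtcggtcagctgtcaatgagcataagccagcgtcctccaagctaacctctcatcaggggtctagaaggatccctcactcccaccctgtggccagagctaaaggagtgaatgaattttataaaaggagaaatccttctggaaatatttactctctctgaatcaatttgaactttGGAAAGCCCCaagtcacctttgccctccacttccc
Cxcl2, chr5:90903649-90903898, plus strand: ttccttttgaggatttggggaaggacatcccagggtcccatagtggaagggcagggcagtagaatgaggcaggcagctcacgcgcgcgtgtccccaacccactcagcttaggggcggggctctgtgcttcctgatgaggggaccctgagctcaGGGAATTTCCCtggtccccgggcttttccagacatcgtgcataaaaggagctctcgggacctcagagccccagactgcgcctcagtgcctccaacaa
Cxcl3, chr5:90785851-90786100, plus strand: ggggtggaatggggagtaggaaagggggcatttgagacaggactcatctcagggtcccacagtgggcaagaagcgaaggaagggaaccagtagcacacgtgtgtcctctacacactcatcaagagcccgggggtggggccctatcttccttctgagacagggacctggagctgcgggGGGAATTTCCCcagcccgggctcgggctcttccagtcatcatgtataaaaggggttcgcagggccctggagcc
Cxcl2 and Cxcl3 hold overlapping matches, starting at -97 and -96 and at -73 and -72 from the start, and Ccl9 holds a match at -35. With any base allowed at position 6, Ccl1 also held a match, starting at -196. Counting Ccl1, 7 of the 19 tested genes then held a match, against 7.25% of all promoters. The RefSeq start of Ccl1 lies inside the longer span that GENCODE gives the gene. Of the 19 tested genes with a promoter, 6 held a match (Ccl9, Ccrl2, Cxcl1, Cxcl2, Cxcl3 and Cxcl10), where 3.9% of the 32851 promoters in the table did. For every motif a gene was counted if any of its promoters matched, while the shares are of single promoters. The units therefore differ. Ccrl2 has several promoters, not all of which matched. The AP-1 motif TGANTCA was found in 3 of them (Ccl9, Ccr4 and Cxcl10), against 6.75% of all promoters. The interferon-response motif ISRE (GAAA repeated after a gap of 2 bases) was found in 1 (Cxcl10), against 2.98%, and the STAT motif GAS (TTC and GAA with 3 bases between) in 0, against 7.02%. The genes with an NF-kB match include both higher and lower ones in the Ang II libraries, and a match is a description of the letters, not evidence of binding.

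Receptors made up the larger part of the family's FPKM in all 4 libraries, measuring 2742 and 2770 FPKM under IL-33 alone, and 2002 and 2310 FPKM once Ang II was added. Cxcr6 (chromosome 9, 123806475 to 123811760, plus strand), a receptor of tissue-resident lymphocytes, was the most abundant member throughout. It measured 1223 and 1236 FPKM under IL-33 alone, and 1042 and 1375 FPKM once Ang II was added, ranks 37, 36, 44 and 28 among all genes. The groups overlapped (log2 fold change -0.04, SE 0.28). Cxcr6 lies over part of Fyco1 on the opposite strand, which did not exceed 3.28 FPKM.

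Ccr8 (chromosome 9, 120092114 to 120094906, plus strand), a receptor of type 2 lymphocytes, measured 1014 and 1022 FPKM under IL-33 alone, and 688 and 671 FPKM once Ang II was added. Both Ang II values were lower, at 0.676 and 0.659 of the IL-33 mean, and they lay close together. The log2 fold change was -0.58 (SE 0.13; by limma, adjusted p = 0.385). Counting both IL-33 libraries as samples, limma gave Ccr8 an adjusted p of 0.0106, Ccl1 0.00627 and Ccr7 0.00602. These were the only family members called, with 4.96% of all genes called higher and 11.8% lower. That setting takes near copies for separate samples and so understates the spread (for Ccr8 an SE of 0.042). Ccl1, the ligand of Ccr8, stood near 0 where Ccr8 was highest, and Ccl8, its other ligand in mice, was listed at 0 throughout.

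Ccrl2, an atypical receptor that binds chemerin and presents it to other cells, measured 133 and 135 FPKM under IL-33 alone, and 172 and 174 FPKM once Ang II was added. Its groups did not overlap, and its Ang II libraries were the closest of any tested member, 0.02 apart on the log2 scale. The log2 fold change was 0.37 (SE 0.19; by limma, adjusted p = 0.775). Ccr2, the monocyte receptor for Ccl2, measured 21.8 and 21.9 FPKM under IL-33 alone, and 28.6 and 33.5 FPKM once Ang II was added (log2 fold change 0.48, SE 0.38). Its ligands Ccl2, Ccl7 and Ccl12 did not exceed 0.10 FPKM. Xcr1, a receptor typical of cross-presenting dendritic cells, measured 2.38 and 2.57 FPKM under IL-33 alone, and 16.8 and 3.48 FPKM once Ang II was added. The dendritic cell markers Flt3, Clec9a, Cd209a and Itgax were listed at 0 in all 4 libraries.

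Ccr7 (chromosome 11, 99144196 to 99155077, minus strand), which guides lymphocytes and dendritic cells to lymph nodes, measured 78.9 and 83.0 FPKM under IL-33 alone, and 0.14 and 0.11 FPKM once Ang II was added. The groups were far apart (log2 fold change -6.19, SE 0.65, and -8.50 with a pseudocount of 0.1 FPKM), but Ccr7 did not pass the adjusted threshold. The IL-33 pair counts as 1 sample and both Ang II values were near 0. The agreement within each pair therefore says little about the spread between samples. Cxcr3 (chromosome X, 101731535 to 101734269, minus strand), the receptor for Cxcl10, stood at 204 and 210 FPKM with IL-33, at 23.8 FPKM in Ang II replicate 1 and at a listed 0 in replicate 2 (log2 fold change -5.38, SE 3.005, and -7.07 with that pseudocount). Ccr4, a receptor of type 2 and skin-homing lymphocytes, measured 43.6 and 39.6 FPKM under IL-33 alone, and 28.7 and 0 FPKM once Ang II was added. Both Ang II values of Cxcr3 and of Ccr4 lay below the IL-33 values, but for Ccr4 the library listed at 0 sets most of the difference. Without Ang II replicate 2 the log2 difference was -0.52 for Ccr4 and -3.07 for Cxcr3.

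Ccr7, Cxcr3 and Ccr4 are also carried by T cells. Of 13 T cell markers 11 were tested, and all 11 were lower in both libraries that had received Ang II, as were 33.5% of all tested genes. Their median log2 fold change was -2.93. Their summed level was 1306 and 1302 FPKM with IL-33 and 927 and 457 FPKM with Ang II. The most abundant, Trbc2, stood at 710 and 717 FPKM against 541 and 211 FPKM, and Trbc1 at 314 and 306 FPKM against 267 and 220 FPKM, and Cd4, at 6.32 and 6.92 FPKM with IL-33, was at 0 in the Ang II pair. The CD8 genes Cd8a and Cd8b1 were under 1 FPKM in every library. The part of T cells in the values of Ccr7, Cxcr3, Ccr4 and Ccl5 was not tested. Nor was it tested for other members, Ccr8, Cxcr6 and Ccl1 among them. In bulk samples fewer cells of a type and less RNA per cell cannot be told apart. S1pr1, the egress receptor that lymphocytes use beside Ccr7, measured 20.2 and 19.0 FPKM under IL-33 alone, and 0.18 and 0.10 FPKM once Ang II was added.

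Cxcr4, the receptor for Cxcl12, measured 20.2 and 20.3 FPKM under IL-33 alone, and 0.24 and 32.6 FPKM once Ang II was added, and Cxcl12 did not exceed 0.07 FPKM. Cxcr1 was at 15.4 FPKM and Ackr3, a scavenger of Cxcl12, at 4.17 FPKM in Ang II replicate 2, and both were listed at 0 in the other libraries. Cxcr2, the ELR chemokine receptor of neutrophils, stayed between 0.18 and 0.33 FPKM. Neutrophil markers summed to 209 and 202 FPKM with IL-33 and to 63.0 and 39.6 FPKM with Ang II, led by S100a8 (163 and 157 FPKM against 34.2 and 18.9 FPKM) and S100a9 (42.0 and 40.5 FPKM against 24.2 and 16.9 FPKM). Of 8 neutrophil markers, 3 were tested, and all 3 were lower in both, as were 33.5% of all tested genes. Among them Retnlg barely differed (3.02 and 3.20 FPKM against 3.01 and 2.65 FPKM, log2 fold change -0.10). Of the 8 neutrophil markers, 4 (Csf3r, Ly6g, Camp and Mpo) stayed under 1 FPKM in every library.

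**Figure D2:**
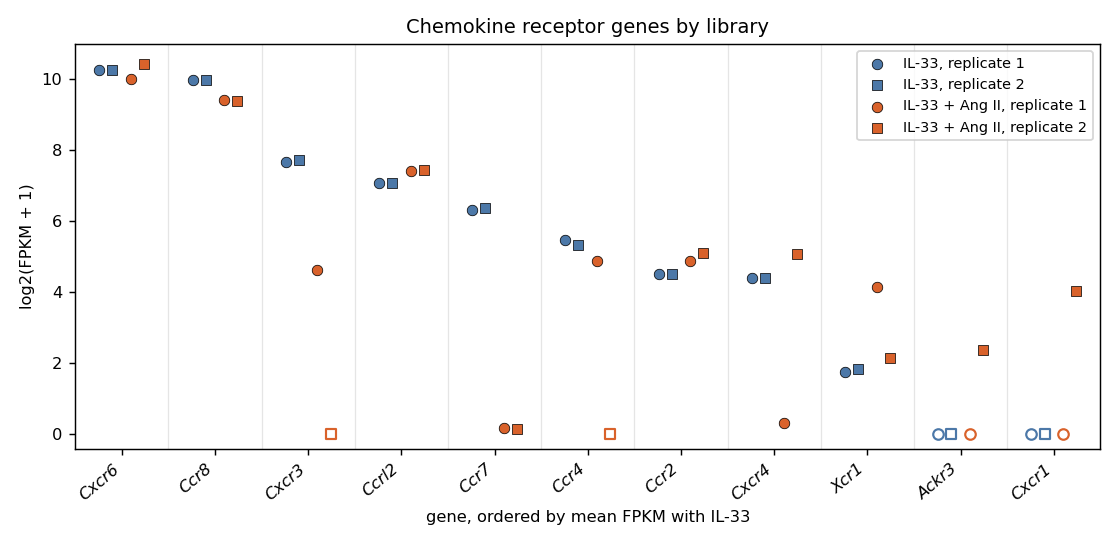
Level of the 11 tested receptor genes as log2(FPKM + 1), with blue for IL-33 and orange for IL-33 plus Ang II, circles for replicate 1 and squares for replicate 2, and open symbols for a listed 0. Cxcr6 and Ccr8 stand highest in every library, Ccr7 is near 0 in both Ang II libraries, and Cxcr3, Ccr4 and Cxcr4 are near 0 in 1 of them.

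Several family members were present with IL-33 and all but missing from a single Ang II library. Of 16 members at 10 FPKM or more in both IL-33 libraries, 3 were under 1 FPKM in Ang II replicate 1 alone (Ccl6, Cxcl16 and Cxcr4), 2 in replicate 2 alone (Ccr4 and Cxcr3) and 1 in both (Ccr7). Of all 4045 genes at that level, 16.1% were under 1 FPKM in replicate 1 alone, 5.66% in replicate 2 alone and 10.8% in both. The Ang II libraries differed by more than the groups did for 13 of the 23 tested members, against 59.8% of all tested genes. The median gap between these libraries was 1.03 on the log2 scale for the family and 1.22 for all tested genes. The share of the family is close to that of all genes.

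**Figure D3:**
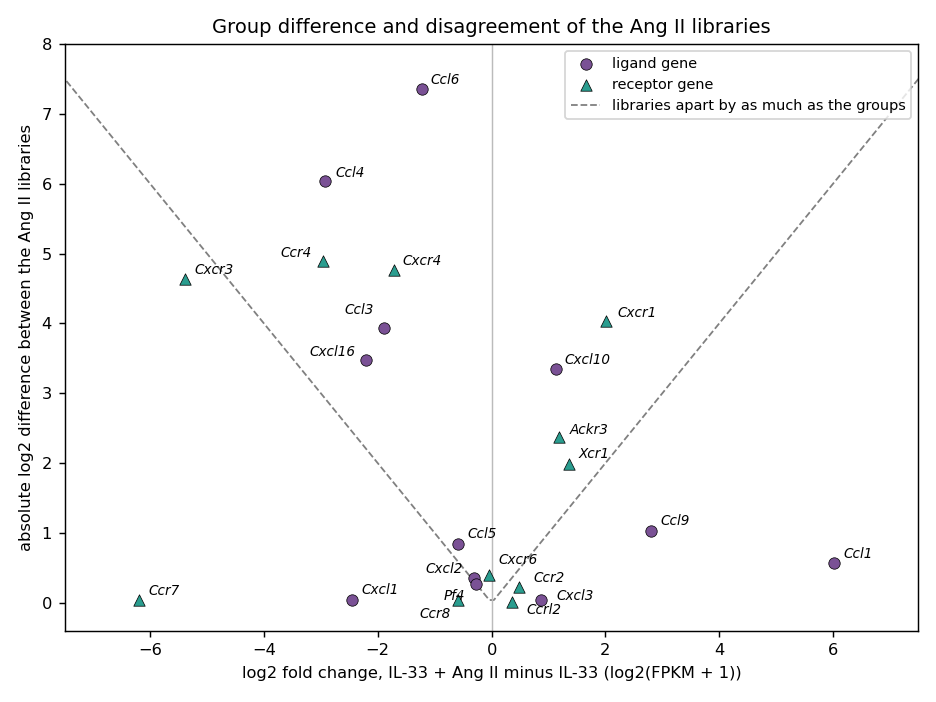
Each point is a tested gene, with its log2 fold change between groups on the horizontal axis and the absolute log2 difference between the Ang II libraries on the vertical axis; points above the dashed lines differ more between the Ang II libraries than between groups. Ccl1, Ccl9, Ccr7 and Cxcr3 lie below the lines with the largest changes, beside Cxcl1, which rests on a single IL-33 library.

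Macrophages, monocytes and dendritic cells are known sources of Ccl6, Ccl9, Ccl3 and Cxcl2. Of 18 markers of these cells, 9 were tested. Among the 9, 1 was higher in both Ang II libraries and 7 were lower in both (24.4% and 33.5% of all tested genes). The higher one was Marco, listed at 0 under IL-33 alone, and 191 and 23.2 FPKM once Ang II was added. The 18 markers summed to 2353 and 2320 FPKM with IL-33 and to 2166 and 1028 FPKM with Ang II. Lyz2, the lysozyme gene of myeloid cells, stood at 1700 and 1668 FPKM against 1016 and 683 FPKM, and Chil3 at 212 and 210 FPKM against 696 and 158 FPKM. Other macrophage and antigen-presentation markers were present with IL-33. Cd68 stood at 150.4 and 150.2 FPKM against 130 and 51.6 FPKM, and Ear2 at 54.5 and 54.4 FPKM against 0.16 and 33.9 FPKM. Adgre1 (F4/80) stood at 24.2 and 23.6 FPKM against 0.06 and 0.04 FPKM, and H2-Ab1, an MHC class II gene, at 38.5 and 41.3 FPKM against 0.40 and 0.18 FPKM. The other 9 genes of the list, among them Csf1r, Mrc1, Siglecf and Mertk, stayed under 1 FPKM in every library. Ccl9 was higher in both Ang II libraries, as was Marco, while 7 of the 9 tested markers were lower in both. The part of macrophages, monocytes and dendritic cells in the ligand values was not tested. Pf4 belongs to platelets as well. Red blood cell and platelet markers were led by Hba-a2 (9432 and 9564 FPKM against 1254 and 482 FPKM) and Hba-a1 (8966 and 8784 FPKM against 1115 and 365 FPKM). Of their 8 tested genes, 5 were lower in both Ang II libraries, as were 33.5% of all tested genes. These 5 were all red cell genes (the globin genes and Alas2). The 3 platelet genes tested overlapped between groups, Ppbp at 6.27 and 5.27 FPKM against 8.26 and 5.64 FPKM (log2 fold change 0.21), Gp9 with a log2 fold change of -0.03 and Itga2b likewise with -0.03.

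NK and ILC1 markers had 2 of 9 genes tested, Nkg7 (29.9 and 30.9 FPKM, and 0 in both Ang II libraries) and Gzma (0.17 and 0 FPKM against 0.07 and 13.3 FPKM). B cell markers were led by Cd79b (14.6 and 11.9 FPKM against 50.5 and 0.28 FPKM) and Ighm (3.45 and 3.96 FPKM against 41.0 and 1.18 FPKM). Of 6 epithelial markers tested, 5 were lower in both Ang II libraries, as were 33.5% of all tested genes. Epithelial markers summed to 388 and 378 FPKM with IL-33 and to 80.1 and 206 FPKM with Ang II. They were led by Scgb1a1 (257 and 244 FPKM against 76.9 and 133 FPKM) and Sftpc (80.5 and 81.5 FPKM against 3.17 and 43.2 FPKM). Of the 9 epithelial markers, 3 (Krt8, Krt18 and Sftpb) were listed at 0 in all 4 libraries. Endothelial and stromal markers were led by Cldn5 (29.6 and 29.3 FPKM against 0.05 and 0 FPKM) and Pecam1 (1.14 and 1.15 FPKM against 0.11 and 9.08 FPKM). The other tested gene of this list, Col1a1, overlapped between groups (log2 fold change -0.11). Of the 9 genes of the list, 6 stayed under 1 FPKM in every library. The endothelial genes Cdh5 and Kdr among them were listed at 0 in all 4 libraries. Of mast cell, basophil and eosinophil markers only Kit was tested (6.17 and 5.75 FPKM against 6.26 and 0.01 FPKM), the next most abundant, Mcpt8, not exceeding 0.73 FPKM.

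Ligands and receptors were then set side by side for 34 pairs of 17 receptors. In each of the 4 libraries 2 pairs had both genes at 1 FPKM or more, and no pair did so in every library. With IL-33 these were Cxcr3 with Cxcl10 and Cxcr6 with Cxcl16. In Ang II replicate 1 they were Cxcr3 with Cxcl10 and Ccr8 with Ccl1, and in replicate 2 Cxcr6 with Cxcl16 and Ccr8 with Ccl1. The pair of Ccr8 and Ccl1 was thus present in both Ang II libraries and in neither IL-33 library. The abundant ligands Cxcl2 and Cxcl3 had no listed receptor at 1 FPKM in any library, Cxcr2 not exceeding 0.33 FPKM. Ccr1, a receptor for Ccl9, did not exceed 0.06 FPKM. Ccr2, Ccr4 and Ccr7 had no listed ligand at that level.

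Members that lie together in the genome differed in level and in direction. Chromosome 9 holds 14 members, all receptor genes. Among them Cxcr6, Xcr1, Ccr1, Ccr3 and Ccr2 lie in that order, from Cxcr6 at up to 1375 FPKM to Ccr3, listed at 0. Its genes made up 59.4% and 59.2% of the family's FPKM with IL-33 and 74.6% and 49.3% with Ang II. On chromosome 11, with 14 members, Ccl5, Ccl9, Ccl6, Ccl3 and Ccl4 lie in that order. With Ang II, Ccl9 was higher in both libraries and Ccl5 lower in both, while Ccl6, Ccl3 and Ccl4 were low in replicate 1 only. Ccl1 lies beside Ccl2, Ccl7, Ccl11, Ccl12 and Ccl8, and these 5 genes did not exceed 0.10 FPKM in any library.

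The machinery that chemokine receptors signal through was also listed. Of 40 signalling genes found, 28 were tested, both Ang II values lay above the IL-33 values for 10 and below them for 7 (against 24.4% and 33.5% of all tested genes), 0 passed the adjusted threshold, and the median log2 fold change was 0.19. The most abundant were Rap1b, a GTPase that activates integrins (270 and 272 FPKM with IL-33, 386 and 312 FPKM with Ang II), Rac2, a GTPase of leukocyte movement (183 and 179 FPKM, 425 and 155 FPKM), Cdc42, a GTPase of cell polarity (259 in both, 243 and 224 FPKM), and Rgs2, which limits G protein signals (166 and 164 FPKM, 94.5 and 284 FPKM). Of the 7 other chemoattractant receptors tested, 1 was higher and 3 lower in both (24.4% and 33.5% of all tested genes). The lower ones were S1pr1, given above, S1pr4 (19.3 and 20.2 FPKM against 0.06 and 0 FPKM) and Fpr2, a formyl peptide receptor (18.3 and 18.1 FPKM, and 0 in both Ang II libraries). Ltb4r1, the leukotriene B4 receptor, measured 185 and 181 FPKM under IL-33 alone, and 395 and 399 FPKM once Ang II was added (log2 fold change 1.11, adjusted p = 0.240 by limma). Gpr183, the oxysterol receptor, stood at 158 and 150 FPKM against 98.7 and 385 FPKM, Fpr1, another formyl peptide receptor, at 30.7 and 30.3 FPKM against 9.24 and 31.98 FPKM, and C5ar1, the C5a receptor, at 0.07 and 0.24 FPKM against 0 and 24.03 FPKM. Ptgdr2, the prostaglandin D2 receptor used to define ILC2s, was listed at 0 in all 4 libraries. Of 9 enzymes that modify chemokines or their receptors 1 was tested, Tpst2, which sulfates receptor tyrosines (41.2 and 39.4 FPKM against 116 and 6.71 FPKM). The next 3 by level were Adam10 (0.04 and 0.03 FPKM against 2.29 and 0.10 FPKM), Mmp9 (at most 0.96 FPKM) and Adam17 (at most 0.07 FPKM).

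**Figure D4:**
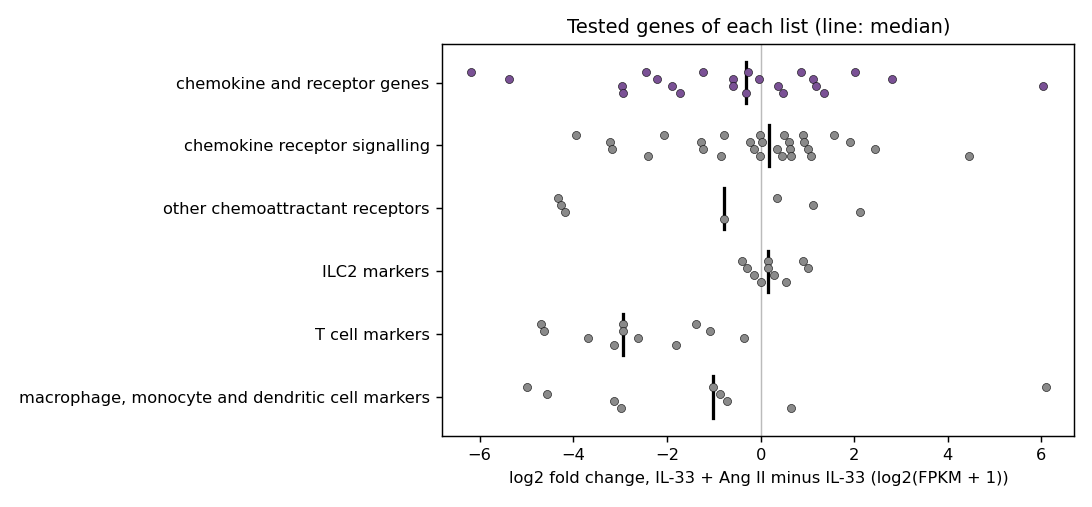
Log2 fold change between groups, on the log2(FPKM + 1) scale, of each tested gene in the chemokine family and in 5 comparison lists, with a black line at the median of each. The family spreads to both sides of 0 around a median of -0.31, ILC2 markers have a median of 0.16 and all tested T cell markers lie below 0.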

How the data were processed

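RNA-seq of 4 libraries was analysed. The authors deposited FPKM per gene with 2 decimals, per the file headers; the submitters' processing notes name mm10, HISAT, StringTie and edgeR without version or role. Per the labels' protocols, cDNA came from SMARTer synthesis and PCR amplification, so a transcript can be lost from a library or multiplied in it. FPKM are not counts and no count model was used; the depth per sample is unknown, so no counting intervals are given. Genes averaging 1 FPKM or more over 3 columns (IL-33 mean and both Ang II libraries) were tested on log2(FPKM + 1) with limma 3.58.1 in R 4.3.3 (trended eBayes, 1.82 total degrees of freedom, the lone IL-33 sample assumed to vary like the others), adjusted over all genes. On simulated data of this design the fit returned fold changes near those put in, but the adjusted threshold called few of the changed genes, so a count of 0 calls says little. A fold change on this scale understates that of low genes, and a listed 0 can be a failed estimate. Every tested member is named; of pathway lists the 4 most abundant members are named and of marker lists the 2 most abundant. S1pr1, S1pr4, Fpr2, Cd4, Gata3, Icos, Marco, Cd68, Ear2, Adgre1, H2-Ab1, Retnlg, the platelet genes, Ptgdr2 and markers at or near 0, and the wider NF-kB form, were added after their values were seen. Col1a1 was likewise added after its values were seen. The members and lists were chosen with earlier results of these data known. Gene positions are from GENCODE M21 (63 of 63 found), promoters from RefSeq.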

Additional observations from a re-analysis of the deposited data

How the results depend on the processing

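Counting the IL-33 libraries as 2 samples raised the genes called by limma from 0 to 1547 (457 higher, 1090 lower) and the members called from 0 to 3. With the replicate block and IL-33 counted as 2 samples these numbers were 0 and 0, with 1835 genes and 4 members at an unadjusted p under 0.05. Whether replicate numbers pair the libraries could not be told. The within-group differences correlated at r = -0.02 across genes, but the difference within the IL-33 pair was below sampling noise at the depth implied by detection. Requiring at least 2-fold between the nearest values left 2 members higher (Ccl1 and Ccl9) and 2 lower (Ccr7 and Cxcr3). Leaving out 1 library moved the count of higher members between 6 and 14, that of lower members between 7 and 14, and the median log2 fold change between -0.50 and 0.16; the shares of all genes also moved when an Ang II library was left out, as given next. Without Ang II replicate 1 (values with no test) 14 were higher (48.3% of all genes tested), and these log2 differences turned: Ccl3 to 0.0792, Ccl4 to 0.0921, Ccl6 to 2.45, Cxcr4 to 0.66 and Cxcr6 to 0.16. Without Ang II replicate 2, 14 were lower (51.7% of all genes tested) and Cxcl10 turned to -0.55; the others were then Ccl3 -3.85, Ccl4 -5.95, Ccl6 -4.90, Cxcr4 -4.10 and Cxcr6 -0.24, and Cxcl10 without replicate 1 was 2.80. Scaling by median ratios turned Cxcr6 to 0.0591. Without an Ang II library no residual degree of freedom was left, so no calls were counted. The causes were not tested. The pseudocount, the minimum level and leaving out an IL-33 library changed no call of genes or members.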
